A study of Mus musculus with 6 samples.

Results

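The promoter positions of the coregulator HCFC1 that had no counterpart after ERRα knockdown numbered 684. They were chosen by their state in 2 deposited peak lists: a peak of the control list whose annotation was a promoter, and which shared no base with any peak of the ERRα-knockdown list, was counted as lost. The control list held 5787 promoter peaks, so 684 lost peaks are 11.8% of them (exact binomial 95% interval 11 to 12.7%), and the other 5103 are called kept. The interval, like every interval given here, covers counting error only. The lost peaks belonged to 675 genes.

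The assay was ChIP-seq, the sequencing of DNA pulled down with an HCFC1 antibody, in wild-type Hepa1-6 cells, a mouse hepatoma line. Cells received small interfering RNA against ERRα (siERRα), against HCFC1 (siHCFC1) or a scrambled pool (siControl), given at 100 nM and repeated at that dose after 48 h, labelled as 200 nM over 96 h. There was 1 HCFC1 list per condition, made from 2 independent immunoprecipitations pooled, so no difference has a replicate check and no test was possible. The IgG libraries were not analysed here, the depth of each library is unknown, and the extent of either knockdown was not measured in these files. The lists held 21881 peaks after siERRα with a median width of 711 bp, 12610 after siHCFC1 with 466 bp, and 36147 after siControl with 394 bp. Of 13 hepatocyte markers, 2 had a control promoter peak, as did 1 of 9 markers of other liver and blood cell types, and a peak is not a measure of expression.

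HCFC1 does not bind DNA itself and reaches promoters through DNA-binding partners, among them ZFP143 and THAP11, often at genes of growth and basic metabolism. ERRα is an orphan nuclear receptor that binds an extended half-site and is best known for its role in genes of mitochondrial energy metabolism. In liver it takes part in the control of fatty acid oxidation and gluconeogenesis.

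Promoter sequence is shown for the strongest lost peaks with a RefSeq window among those that covered a transcription start and had no siERRα peak within 1000 bp, and for those with an element of an ERR receptor or of ZFP143 and THAP11. Each line gives the 250 bases before the start, read from RefSeq on build GRCm38.p6. Capitals mark matches to the motifs searched, the GC box aside. Gm5106 (minus strand, chr5:8798524-8798773) and Arhgef39 (minus strand, chr4:43508748-43508997) hold an E-box. Npas1 (minus strand, chr7:16476781-16477030) holds a YY1 element. Lipo2 (minus strand, chr19:33761952-33762201), Parp11 (plus strand, chr6:127446590-127446839) and Zfp358 (plus strand, chr8:3492888-3493137) hold a ZFP143 and THAP11 element. Ambp (minus strand, chr4:63154173-63154422) holds an ERR element, here as its reverse complement, and a separate half-site core directly before the start.
Gm5106: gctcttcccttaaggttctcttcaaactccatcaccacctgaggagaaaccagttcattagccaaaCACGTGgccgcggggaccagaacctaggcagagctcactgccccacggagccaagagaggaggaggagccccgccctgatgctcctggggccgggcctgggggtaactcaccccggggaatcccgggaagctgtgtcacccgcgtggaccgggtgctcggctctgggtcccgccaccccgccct
Arhgef39: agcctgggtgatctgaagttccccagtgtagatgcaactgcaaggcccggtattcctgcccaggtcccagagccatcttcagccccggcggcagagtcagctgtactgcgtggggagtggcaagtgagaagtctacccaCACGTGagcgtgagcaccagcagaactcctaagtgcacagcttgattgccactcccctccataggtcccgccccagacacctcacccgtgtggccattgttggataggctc
Npas1: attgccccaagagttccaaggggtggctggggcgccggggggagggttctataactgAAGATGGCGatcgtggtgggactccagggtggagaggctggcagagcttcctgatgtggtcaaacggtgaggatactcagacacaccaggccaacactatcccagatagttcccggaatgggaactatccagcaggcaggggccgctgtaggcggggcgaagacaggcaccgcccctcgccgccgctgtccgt
Lipo2: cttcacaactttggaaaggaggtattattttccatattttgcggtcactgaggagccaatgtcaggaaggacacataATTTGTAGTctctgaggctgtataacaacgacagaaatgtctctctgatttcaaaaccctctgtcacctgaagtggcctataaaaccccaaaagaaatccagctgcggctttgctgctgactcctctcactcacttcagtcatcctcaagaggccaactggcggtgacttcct
Ambp: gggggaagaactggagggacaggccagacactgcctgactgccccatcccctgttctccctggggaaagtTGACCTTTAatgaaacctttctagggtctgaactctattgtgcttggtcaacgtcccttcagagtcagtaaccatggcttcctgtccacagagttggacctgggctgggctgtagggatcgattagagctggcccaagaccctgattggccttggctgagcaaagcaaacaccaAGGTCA
Parp11: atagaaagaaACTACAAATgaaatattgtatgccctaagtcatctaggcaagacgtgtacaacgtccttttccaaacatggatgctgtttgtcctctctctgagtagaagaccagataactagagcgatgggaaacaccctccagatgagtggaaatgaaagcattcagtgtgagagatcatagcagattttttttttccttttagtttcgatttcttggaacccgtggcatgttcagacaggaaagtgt
Zfp358: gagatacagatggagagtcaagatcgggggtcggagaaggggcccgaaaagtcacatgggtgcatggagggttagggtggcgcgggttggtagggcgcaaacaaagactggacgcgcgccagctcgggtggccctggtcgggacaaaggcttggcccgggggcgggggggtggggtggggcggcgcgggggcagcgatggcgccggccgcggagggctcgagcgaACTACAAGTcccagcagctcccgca

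The ERR element of Ambp lies 180 to 172 bases before its start and inside the lost peak. Ambp encodes the precursor of alpha-1-microglobulin and bikunin, proteins secreted by the liver. Its peak had a score of 41 and the nearest siERRα peak lay 2106 bp away. The ZFP143 and THAP11 element lies 173 to 165 bases before the start of Lipo2, a lipase family gene, 240 to 232 bases before that of Parp11, an ADP-ribosyltransferase gene, and 25 to 17 bases before that of the zinc finger gene Zfp358. The elements of Lipo2 and Zfp358 lie inside the lost peak, and that of Parp11 lies outside it. A match is a match of letters and not a measured binding site.

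Lost promoter peaks were weak ones. The deposited score, whose scale is not stated and which was used only within the control list, ranged from 13 to 131 among lost peaks, with a median of 29 (95% interval 28 to 31). The median was 118 among kept peaks, and 2375 kept peaks scored above the strongest lost one. Of the lost peaks, 615 scored 50 or less. Because of this, kept peaks were weighted to the same scores as the lost ones wherever both are set side by side below, and the lost share expected from score was taken from all control promoter peaks of similar score.

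Most lost peaks did not lie over the transcription start. A peak was said to cover a start when the start listed for it fell inside the peak, a split made after the data were seen. By this split 268 lost peaks covered a start (39.2%, 35.5 to 43%), against 61.9% of score-weighted kept peaks, and 416 lay beside one. Of all control promoter peaks beside a start, 40.6% were lost (416 of 1025, 37.6 to 43.7%), where their scores gave an expected 30.2%. Of those covering a start, 5.63% were lost (268 of 4762, 4.99 to 6.32%), where their scores gave 7.87%. The difference in place was not seen once peaks with a siERRα peak within 1000 bp counted as kept: 54.7% of the 393 peaks then lost covered a start, against 54.4% of score-weighted kept peaks.

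The gap between the places was found at every score level at which peaks were lost, without matching on width. A wide peak more easily covers a start and is more easily touched by a siERRα peak. Score-weighted kept peaks had a median width of 567 bp covering a start and 355 bp beside one. How far width accounts for the gap between the places was not tested. With the 5787 peaks split into 5 score groups of like size, scores of 13 to 36 lost 53.5% of peaks beside a start (309 of 578) and 30.3% of those covering one (171 of 564). Scores of 37 to 67 lost 29.2% beside a start (97 of 332) and 10.1% covering one (81 of 799). Scores of 68 to 136 lost 9.8% beside a start (10 of 102) and 1.47% covering one (16 of 1092). No peak above 136 was lost, and only 13 of those lay beside a start.

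**Figure D1:**
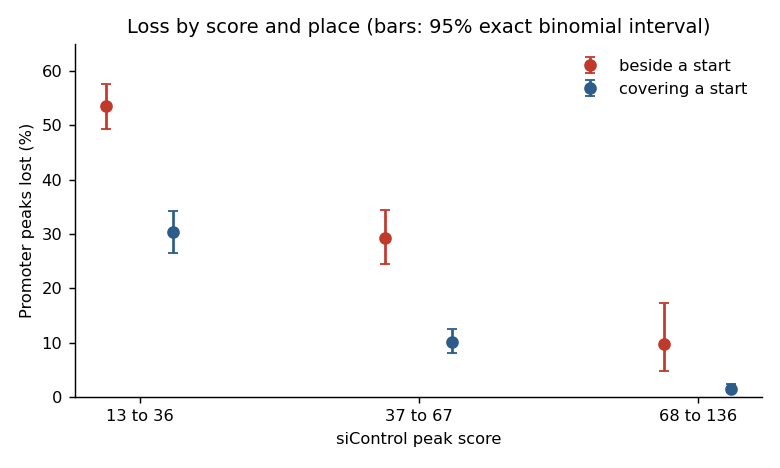
Percent of siControl promoter peaks without an overlapping siERRα peak (vertical axis) by deposited peak score (horizontal axis), for peaks beside a transcription start and peaks covering one. Points are shares, bars exact binomial 95% intervals, and the share beside a start is higher in the 3 score groups in which peaks were lost, with 53.5% against 30.3% in the weakest. The shares are not matched on peak width.

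The lost share also differed with distance from the start, and so did the share expected from score. Among control promoter peaks centred 1000 to 800 bp upstream 44.8% were lost (113 of 252), where their scores gave an expected 29.4%. Between 800 and 600 bp upstream 39.4% were lost (24.9% from score) and between 600 and 400 bp 28.1% (23.2% from score). The share was 13.5% between 400 and 200 bp upstream (12.6% from score) and 8% within 200 bp upstream (9.78% from score). Of lost peaks, 77.8% were centred upstream of the start (74.5 to 80.8%), against 63.9% of score-weighted kept peaks. The median distance from the start, on either side, was 338.5 bp for lost peaks (286 to 398) and 136 bp for score-weighted kept peaks. The promoter annotation of the lists reaches much farther upstream than downstream, and 35 lost peaks lay more than 100 bp downstream of the start listed for them.

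**Figure D2:**
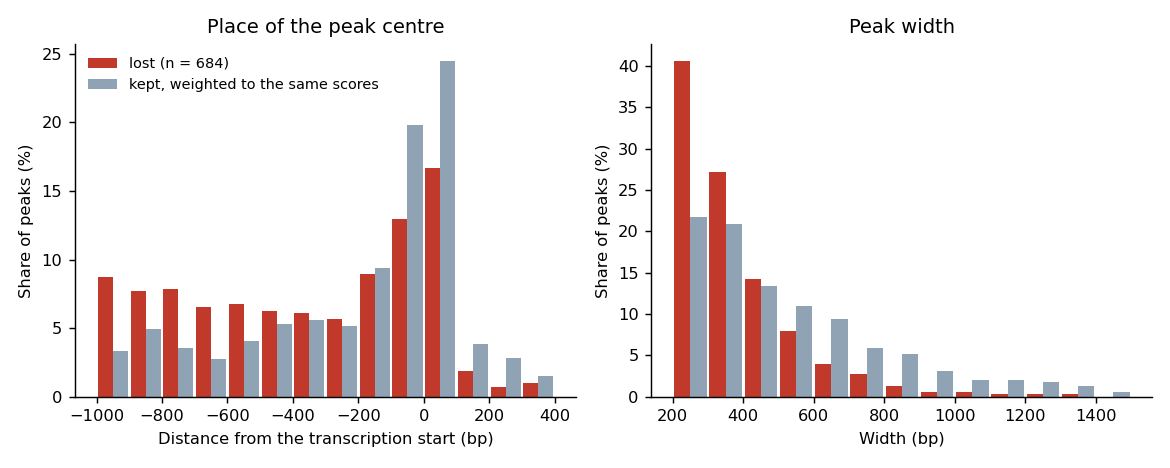
Share of lost promoter peaks and of kept promoter peaks weighted to the same scores, by distance of the peak centre from the transcription start in bp (left panel) and by peak width in bp (right panel), in steps of 100 bp. Lost peaks spread over the upstream 1000 bp, and 40.6% of them are 200 to 300 bp wide, while kept peaks gather at the start, and 13 lost peaks centred 400 bp or more downstream are not drawn.

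The nearest siERRα peak was often close to a lost peak beside a start. Of these 416 peaks, 238 had one within 1000 bp (57.2%, 52.3 to 62%) and the median gap was 630 bp (514 to 828). For 165 of those 238, a siERRα peak covered a listed start of the same gene, as it did for 185 of all 416 (44.5%). Adsl, which encodes the purine synthesis enzyme adenylosuccinate lyase, is an example: its lost peak (chromosome 15, 80947540 to 80947914, score 91) was centred at -763 bp, the gap was 275 bp, and the start itself was under a siERRα peak. Nfyc, which encodes a subunit of the CCAAT-binding factor NF-Y, had a gap of 451 bp and Abt1, an activator of basal transcription, one of 437 bp, and their starts were under a siERRα peak too. In these genes the upstream peak had no counterpart by the overlap rule, while the start was under a siERRα peak.

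Lost peaks that covered a start were mostly far from any siERRα peak. Only 53 of 268 had one within 1000 bp (19.8%, 15.2 to 25.1%), and the median gap was 10887.5 bp (8110 to 17362). The rule allows no siERRα peak on a start that a lost peak covers, while a lost peak beside a start can have one there. The difference in gap from peaks beside a start is therefore in part set by the rule. The 26 of the 268 whose gene had a listed start under a siERRα peak had it on another start. Without the 53, there were 215 lost peaks that covered a start and had no siERRα peak within 1000 bp, 186 of them at protein-coding genes.

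**Figure D3:**
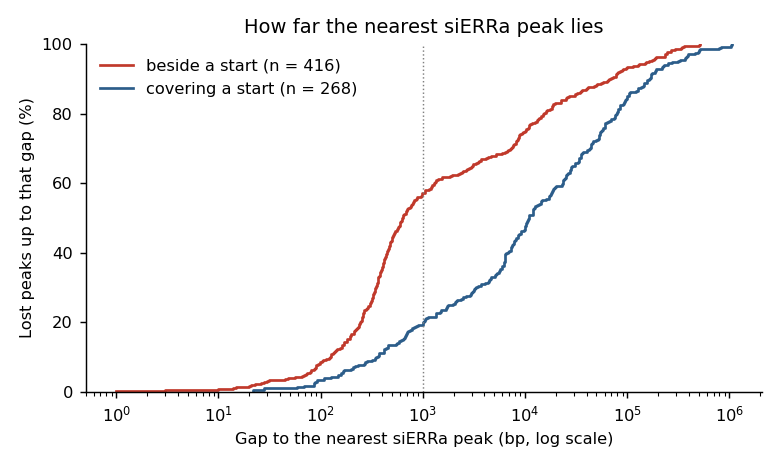
Cumulative percent of lost promoter peaks (vertical axis) by gap to the nearest siERRα peak in bp (horizontal axis, log scale), for 416 peaks beside a start and 268 covering one. The dotted line marks 1000 bp, below which 57.2% of peaks beside a start and 19.8% of peaks covering one lie. The rule keeps siERRα peaks off a start that a lost peak covers, so this difference is in part set by it.

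The strongest of these 215 peaks lay at genes of varied function. Fam135b came first (chromosome 15, 71727323 to 71728463, score 131), with the nearest siERRα peak 818968 bp away. Gm5106, a non-coding gene, followed (chromosome 5, 8798124 to 8798813, score 100, gap 94792 bp). Arhgef39, a guanine nucleotide exchange factor gene, had a score of 95 (chromosome 4, 43508304 to 43509387) and a gap of 8505 bp. Npas1, a transcription factor of neurons, had a score of 94 (chromosome 7, 16476583 to 16477365) and a gap of 1698 bp. All 4 peaks were well over 600 bp wide, wider than most lost peaks.

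The next peaks in this order were as varied. Hdac7, a class IIa histone deacetylase, had a score of 73 (chromosome 15, 97814577 to 97815006, gap 5646 bp), although another listed start of the gene was under a siERRα peak. P2rx7, an ATP-gated ion channel, also had a score of 73 (chromosome 5, 122643432 to 122644430, gap 2998 bp). Decr2, a peroxisomal enzyme of unsaturated fatty acid breakdown, had a score of 71 (chromosome 17, 26089844 to 26090511, gap 10909 bp). Nfe2, a transcription factor of erythroid cells and platelets, had a score of 65 (gap 14204 bp). The zinc finger genes Zfp51 (86) and Zfp972 (69), the katanin-like gene Katnal2 (78), Pcmtd2 (66) and the non-coding 1500009C09Rik and 4930563E18Rik (both 65) completed the scores of 65 or more, beside Lipo2 (84) and the serpin gene Serpinb6b (69).

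Among the 30 strongest lost peaks of either place, 18 had no siERRα peak within 1000 bp. The 12 that did have one were Tm7sf2, a sterol reductase gene (score 106, gap 250 bp), Sh3tc1 (100, gap exactly 1000 bp), Borcs8, a gene of lysosome positioning (92, gap 108 bp), Adsl, the Rap exchange factor gene Rasgrp2 (82, gap 649 bp), Bcar3 (82, gap 236 bp), Nfyc, Abt1, Stom (72, gap 344 bp), 1810008I18Rik (69, gap 811 bp), Rn4.5s (68, gap 531 bp) and 2810403D21Rik (68, gap 321 bp). Borcs8, Rasgrp2, Sh3tc1 and 2810403D21Rik covered a start, and the other 8 lay beside one. Rn4.5s is a repetitive RNA gene, so the place of its reads is uncertain.

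Lost peaks were narrow. Their median width was 333 bp (320 to 346), against 452 bp for score-weighted kept peaks. The median was 375 bp against 567 bp for peaks covering a start, and 308.5 bp against 355 bp for peaks beside one. Width bears on the rule, because a wide peak is more easily touched by another, so the difference is a description. The widest lost peaks were those of Gprc5a, an orphan G protein-coupled receptor gene (1367 bp), Fam114a1 (1315 bp), Gm15408 (1234 bp), the kinase gene Mark2 (1232 bp) and Fam135b (1141 bp). The narrowest, all 227 bp, were those of Dusp12, the Wnt ligand gene Wnt9a, the clock gene Per1, Snord17 and Mir183.

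Non-coding genes were a larger part of the lost peaks. By the deposited gene type, 572 lost peaks lay at protein-coding genes (83.6%, 80.6 to 86.3%), against 91.8% of score-weighted kept peaks. Non-coding RNA genes took 100 lost peaks (14.6%, 12.1 to 17.5%), against 7.29%. Put the other way, 26.2% of the 381 promoter peaks at non-coding RNA genes were lost (21.9 to 31%), where their scores gave 18.2%, and 10.7% of the 5353 at protein-coding genes, where scores gave 11.3%. Small nucleolar RNA genes lost 4 of 14 (28.6%, 8.39 to 58.1%), close to the 29.3% their scores gave. Pseudogenes lost 6 of 27 (22.2%, 8.62 to 42.3%; 9.16% from score). The difference was present in both places, with 12.7% non-coding against 7.18% of score-weighted kept peaks covering a start and 15.9% against 7.67% beside one.

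MicroRNA genes accounted for 28 of the lost peaks. That is 34.6% of their 81 promoter peaks (24.3 to 46%), where their scores gave 25%. Counting peaks with a siERRα peak within 1000 bp as kept, the share was 23.5% (14.8 to 34.2%), where scores gave 14.3%. A microRNA gene is annotated from its hairpin, and 19 of the 28 peaks lay beside that start. Mir26a-2 (score 42), Mir203b (40), Mir138-2 (33), Mir92b (27), Mir183 (23), Mir99b (17) and Mir196a-2 (15) were among them. Of these 7, the peaks of Mir203b and Mir99b covered the hairpin start. Genes named only as predicted genes lost 29 of 97 promoter peaks (29.9%, 21 to 40%; 18.6% from score), and RIKEN clones 45 of 243 (18.5%, 13.8 to 24%; 13.2% from score). With the same 1000 bp allowance, predicted genes lost 21.6% (13.9 to 31.2%), where scores gave 10.9%. RIKEN clones then lost 11.5% (7.79 to 16.2%), where scores gave 7.58%.

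Gene lists of core metabolism and of the HCFC1 pathway lost shares whose intervals held the share expected from score in each list given here. Of 35 gene lists, chosen with earlier results of these data known, oxidative phosphorylation lost 0 of 32 promoter peaks, which allows up to 10.9%, and their high scores gave an expected 2.51%. HCFC1 partners lost 0 of 19 (up to 17.6%; 2.12% from score) and aminoacyl-tRNA synthetases 0 of 15 (up to 21.8%; 2.49% from score). RNA polymerase and Mediator lost 0 of 54 (up to 6.6%; 4.29% from score), tRNA and rRNA modification 0 of 34 (up to 10.3%; 5.79% from score), and kinetochore and mitotic spindle 0 of 57 (up to 6.27%; 5.93% from score). Purine and pyrimidine synthesis lost 3 of 10 (30%, 6.67 to 65.2%; 16.4% from score), gluconeogenesis and glycolysis 2 of 11 (18.2%, 2.28 to 51.8%; 17.8% from score), and cholesterol and fatty acid synthesis 3 of 19 (15.8%, 3.38 to 39.6%; 16.2% from score). Fatty acid oxidation lost 2 of 12 (16.7%, 2.09 to 48.4%; 15.9% from score), and ERRα targets and partners 1 of 10 (10%, 0.253 to 44.5%; 9.65% from score). These shares stand beside 11.8% over all promoter peaks. In all, 46 lost peaks were in at least 1 list.

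**Figure D4:**
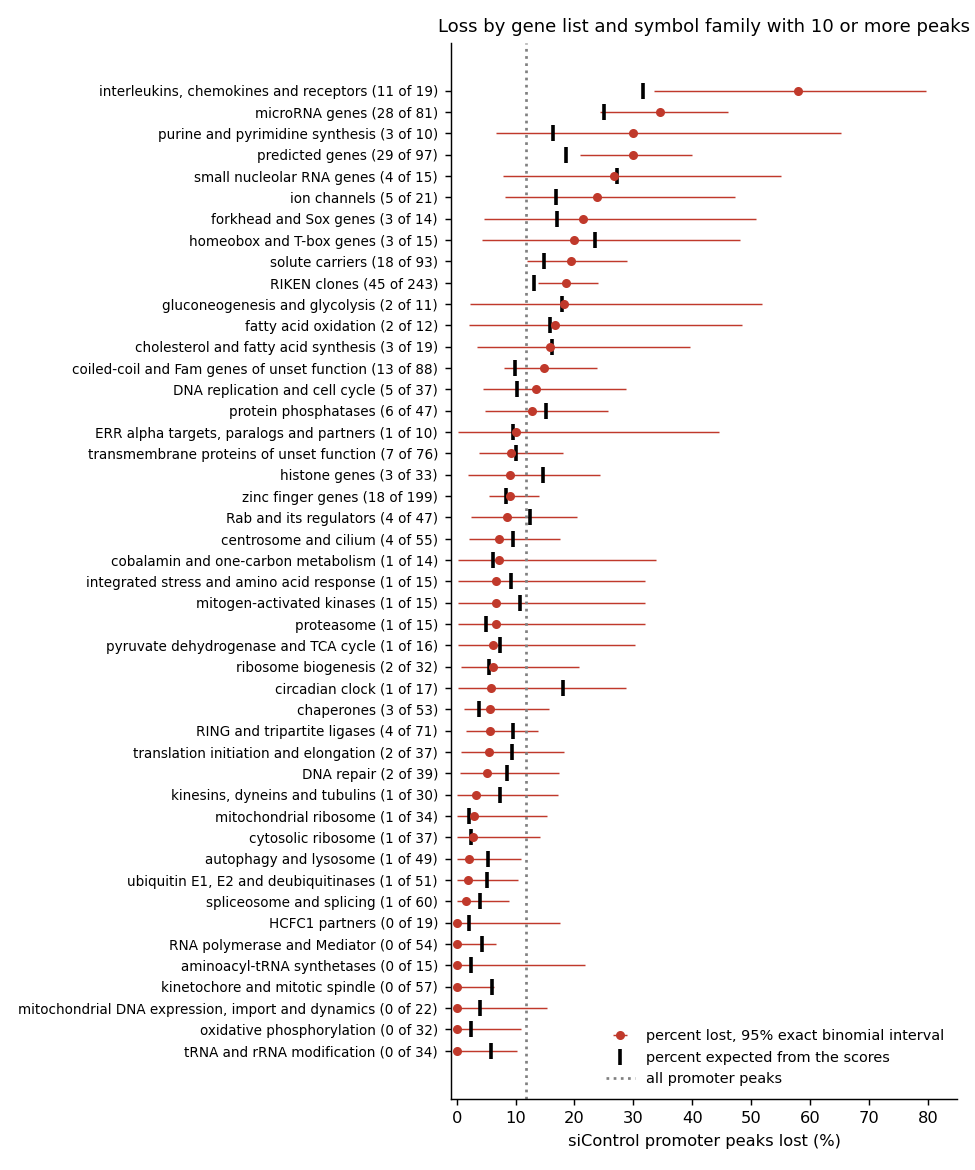
Percent of siControl promoter peaks lost (horizontal axis) for gene lists and symbol families with at least 10 peaks, with counts beside the names. Dots are shares with exact binomial 95% intervals, black ticks the share expected from the peaks' scores and the dotted line the 11.8% of all promoter peaks, and the intervals for interleukins, chemokines and receptors, for predicted genes and for RIKEN clones lie wholly above both.

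Genes of lipid, energy and amino acid metabolism with a lost peak over a start included Decr2 and the following, which were named after their values were seen. Acsl1, which activates long-chain fatty acids, lost a peak 63 bp downstream of a start (chromosome 8, 46490838 to 46491221, score 46, gap 19083 bp), while another listed start of the gene was under a siERRα peak. Slc25a20, the carnitine-acylcarnitine carrier of mitochondria, lost one with a score of 18 (chromosome 9, 108662050 to 108662309, gap 11898 bp). Slc25a4, an ADP and ATP carrier of the inner mitochondrial membrane, lost one with a score of 48 (chromosome 8, gap 46464 bp). Scd1, the stearoyl-CoA desaturase gene, lost a broad peak of 1107 bp with a score of 41 (chromosome 19, 44407440 to 44408546, gap 6248 bp). Aldh18a1, an enzyme of proline synthesis, lost one with a score of 34 (gap 17975 bp). Plin2, which coats lipid droplets, lost one with a score of 44 (gap 53906 bp).

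The 46 lost peaks in gene lists were mostly beside a start, as lost peaks were in general. Of the 46, 30 lay beside a start (65.2%), against 60.8% of all lost peaks. A siERRα peak lay within 1000 bp of 26 (56.5%), against 42.5% of all lost peaks, and for 23 (50%) a listed start of the gene was under a siERRα peak, against 30.8%. The last held for Idh2 of the tricarboxylic acid cycle (score 52, centred at -975 bp), the ribosomal protein gene Rps14 (22), Mrps16 of the mitochondrial ribosome (15), Mcm2 (30) and Cdt1 (31) of replication licensing, the cell cycle inhibitor Cdkn1a (22), Fdft1 of sterol synthesis (28) and the histone gene H2afz (54). Pck1, the gluconeogenic enzyme known as an ERRα target and placed in 3 lists, differed: its lost peak, 456 bp upstream (chromosome 2, 173152452 to 173152782, score 17), had its nearest siERRα peak 26656 bp away and no siERRα peak on its start.

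Genes gathered by cytokine and receptor symbols had a loss share above the one their scores gave by the overlap rule. The loss share was not clear of the expected one with an allowance of 1000 bp. A family of interleukins, chemokines, tumour necrosis factor genes and receptors, gathered by symbol, lost 11 of 19 promoter peaks (57.9%, 33.5 to 79.7%). The scores of these peaks gave 31.6%. The pattern also took in genes that are neither a cytokine nor a receptor, namely Tnfaip1, Tnfaip2, Tnfaip3, Tnfaip8 and Il4i1b. Among those, only Tnfaip3 had lost its peak. Of the 11, Ccrl2, Il17b, Tnfaip3 and Ifngr1 had a siERRα peak within 1000 bp. Counting such peaks as kept left 7 of 19 lost (36.8%, 16.3 to 61.6%), an interval that holds the 18.1% their scores then gave. Il7, a lymphocyte growth factor, had a lost peak over its start (score 62), and the nearest siERRα peak was 1053320 bp away, the widest gap of all. Il34, a ligand of the CSF1 receptor (51), Tnfsf18 (45), Il17b (38), Tnfaip3, an inhibitor of NF-κB signalling (33), Tnfrsf11b, the decoy receptor osteoprotegerin (26), Ifngr1 (23), Il27ra (23) and the alarmin Il33 (15) lay beside a start. Ccrl2 (40) and Tnfrsf13c (23) covered one. Among the 8 kept were Tnfaip1 (1465), Il15 (22) and Il15ra (28), and the pattern collects symbols, not a pathway.

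Serpins, a family of mostly protease inhibitors, lost 4 of 6 peaks (66.7%, 22.3 to 95.7%; 9.53% from score). These were Serpine2 (69), Serpinb6b (69), Serpinb5 (43) and Serpinb9d (40), each with a gap of at least 63255 bp, while Serpinb6a (230) was among those kept. Solute carriers lost 18 of 93 (19.4%, 11.9 to 28.9%; 14.8% from score), 13 of them beside a start. Ion channels lost 5 of 21 (23.8%, 8.22 to 47.2%; 16.8% from score) and zinc finger genes 18 of 199 (9.05%, 5.45 to 13.9%; 8.32% from score). The families were defined by symbol, with no test of their difference from other genes.

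The state of the lost peaks after HCFC1 knockdown was read against the same control list, which both comparisons share. Of all control promoter peaks, 44.4% had no overlapping siHCFC1 peak (2569 of 5787). Of the 684 lost peaks, 624 had none (91.2%, 88.9 to 93.2%), and 60 were overlapped (8.77%, 6.76 to 11.1%). Of the 624 without an overlap, 124 had a siHCFC1 peak within 1000 bp, and most of these lay beside a start. This count has no kept share beside it. Among score-weighted kept peaks 23.9% were overlapped in the siHCFC1 list, and among all kept peaks 61.9%. The overlapped share was 11.2% against 26.6% of score-weighted kept peaks covering a start, and 7.21% against 20.1% beside a start. Lost peaks were also narrower than score-weighted kept peaks (median 333 against 452 bp), and these shares were not matched on width. A rule that asked for a siERRα peak centre no more than 200 bp away left 2912 promoter peaks without a counterpart. Under it, with the siHCFC1 overlap still read at 1 shared base, the order turned, at 48.1% against 45.6% of score-weighted kept peaks.

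The 60 lost peaks with a siHCFC1 counterpart had a median score of 31 (26 to 38) and a median width of 394.5 bp (341 to 470), against 29 (28 to 31) and 329 bp (316 to 339) for the 624 without. The overlap ran from 2 to 668 bp, with a median of 236 bp. The strongest were Fam135b (131), Gm5106 (100), Lipo2 (84), Stom (72), Decr2 (71) and Serpinb6b (69). Decr2 was overlapped over its whole 668 bp. Further down the order were the potassium channel gene Kcnk2 (58), Ywhaz, which encodes a 14-3-3 protein (57), Tacc2 (45) and the Hedgehog effector Gli2 (44). Of the 215 lost peaks over a start and far from siERRα peaks, 25 were overlapped there, and 6 more had a siHCFC1 peak within 1000 bp. The share of the 215 without an overlapping siHCFC1 peak was 88.4% (83.3 to 92.3%), near the 88.8% of all 268 lost peaks covering a start.

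Lost peaks lay on every chromosome with control promoter peaks except 2 unplaced or unlocalised contigs with 1 promoter peak each. Chromosome 15 lost 17.4% (48 of 276, 13.1 to 22.4%; 13.3% from score), an interval that holds its expected share. Chromosome 3 lost 15.4% (43 of 279, 11.4 to 20.2%; 11.4% from score) and chromosome 1 lost 15.1% (52 of 345, 11.5 to 19.3%; 11% from score). Chromosome 9 lost 6.43% (18 of 280, 3.85 to 9.97%), where its scores gave 15.1%, and chromosome 16 lost 5.96% (9 of 151, 2.76 to 11%; 10.4% from score). Lost peaks shared a gene in 8 cases, A730020M07Rik, A930012L18Rik, Bcar3, Crtac1, Gm15941, Oxr1, Tlr3 and Vgll4, with 2 lost peaks each. Both peaks of Tlr3, a receptor for double-stranded RNA, lay far from the nearest siERRα peak, at 76968 bp (score 39) and 77793 bp (score 28).

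The limit of the rule is 1 shared base. Just inside it, 1700003M07Rik missed a siERRα peak by 1 bp, Ubxn6 by 3, Fdft1 by 10, Ablim1 by 10 and Rdh5 by 14. Just outside it, Suclg2 was overlapped by 1 bp, Nova2 by 2, Sdad1 and Rpl14 by 7 and 3300005D01Rik by 10. In all, 45 lost peaks had a gap of at most 100 bp, and 46 kept peaks were overlapped by under 100 bp.

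Promoter composition was read in RefSeq windows of 250 bases before to 50 after the start. Only 487 of the 684 lost peaks had such a window (71.2%), too few for a check over all of them, which is void. Protein-coding peaks covering a start had one for 178 of 222 outside chromosome 18 (80.2%), a group chosen after the match rates were seen. In it lost promoters had a median GC content of 59% (58 to 60.3%), against 65.7% for score-weighted kept promoters and 52.7% for all 32851 windows. They held a median of 11.5 CG dinucleotides (9 to 14), against 24 and 7. The GC box GGGCGG was present in 58.4% (50.8 to 65.8%), against 73.4% of score-weighted kept promoters and 35.7% of all windows.

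The elements of the factors the study is about were rare in this group. The ERR element, TNAAGGTCA, was in 1 of 178 lost promoters (0.562%, 0.0142 to 3.09%), against 0.683% of score-weighted kept promoters and 1.28% of all windows. Its core AGGTCA, which lies inside it, was in 14% (9.3 to 20%), against 10.7% and 16.3%. The ZFP143 and THAP11 element, ACTACAANT, was in 3 of 178 (1.69%, 0.349 to 4.85%), against 0% of score-weighted kept promoters, 4.99% of all kept promoters and 1.49% of all windows. Over the 487 lost peaks with a window, 3 had the ERR element and 5 the ZFP143 and THAP11 element. These counts have no kept share beside them, and 289 of the 487 peaks lay beside a start. Besides Ambp, the ERR element was in the windows of Acsl6 and Zfp764, whose lost peaks lie upstream of the window.

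Other motifs were searched on both strands too. The ETS core CCGGAAG was in 8.99% of the 178 lost promoters (5.23 to 14.2%), against 14.6% of score-weighted kept promoters and 8.86% of all windows. The CREB element TGACGTCA was in 0% (up to 2.05%), against 2.35% and 1.79%. The E-box CACGTG was in 9.55%, against 12.1% and 7.15%, and the NRF1 element GCGCATGCG in 2.25%, against 2.67% and 1.75%. The YY1 element AAGATGGCG was in 1.69%, against 1.63% and 1.4%, and the E2F core TTTCCCGC in 0.562%, against 2.28% and 1.07%. Apart from the ERR element and its core, no motif searched contains another.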

How the data were processed

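Per the submitters' processing notes, the tools were BWA 0.7.12, Picard 2.0.1, MACS2 2.1.1.20160309 and HOMER 4.11.1 on mm10; which step each served is not stated. The deposited peak score is the authors' own value per peak, a whole number of unstated scale. Gene types, annotations and distances are as deposited. Each list pools 2 immunoprecipitations, per the authors' deposited note, and no replicate is labelled. Overlap, gaps and shares were computed in Python 3.11.15 with pandas 2.3.3, NumPy 2.4.6 and SciPy 1.17.1. Shares carry Clopper-Pearson 95% intervals and medians order-statistic intervals. Kept peaks were weighted to the lost peaks' exact scores. The share expected from score is the lost share within 20 bins of score. The overlap and weighting code was tested on simulated intervals.

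The members, the 35 gene lists and the 23 symbol families were chosen with earlier results of these data known. Named genes were the 30 strongest lost peaks, the 15 strongest in siHCFC1, the 5 strongest of each non-coding type, the 5 widest, narrowest and nearest to the limit, genes with several lost peaks and lost list members; of these a part is given, some are not reported here, and other genes were named after their values were seen. RefSeq held 673 of the gene identifiers of lost peaks. Spreadsheet dates had replaced 55 gene names in the control list, none of them at a lost peak, and they were restored by identifier.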

Additional observations from a re-analysis of the deposited data

How the results depend on the processing

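What counts as a counterpart set the number of lost peaks. Against 684, it was 2090 with a reciprocal overlap of at least 50% and 2912 with peak centres within 200 bp. With every siERRα peak set to 200 bp on either side of its centre, which widens any narrower one, the number was 1191. The higher-scoring 50% of the siERRα list gave 1166, and 393 remained when a siERRα peak within 1000 bp also counted as kept. It was 1295 with promoters defined as peaks up to 1000 bp from a start, 234 within the higher-scoring 50% of the control list, and 268 for peaks covering a start.

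In the order reciprocal overlap, centres, resized peaks and stronger siERRα peaks, the share overlapped in siHCFC1 was 32.1%, 48.1%, 19.9% and 13%. The protein-coding share was 89.5%, 91%, 86.6% and 86.4%. In that order the median width was 456.5, 778, 370 and 374 bp, and the median score 41, 66, 34 and 33. The share covering a start was 57.2% with reciprocal overlap, 70.6% with centres, 52.1% with stronger siERRα peaks, 54.7% with the 1000 bp allowance, 47.4% with stronger control peaks and 30.6% with promoters by distance. Stronger control peaks had a median width of 400.5 bp and a median score of 44. Peaks covering a start had 375 bp, a score of 33 and a siHCFC1 share of 11.2%. These alternatives change which peaks are counted, and the cause of the shifts was not tested further. In all of them the siHCFC1 overlap was still read at 1 shared base. Lost peaks remained lower than score-weighted kept peaks in protein-coding share under every alternative run, and in siHCFC1 share under all but the centres rule, where 48.1% stood against 45.6%. They were also narrower, except under the centres rule, with 778 bp against 730 bp. Of the alternatives, only the 1000 bp allowance turned any of the 30 strongest lost peaks into kept ones, and it did so for 12. Matching on start coverage, the split by place, the family shares with the allowance and the coding-only values were added after the data were seen. No paired analysis was possible because each condition has 1 list. Depth is unknown, so whether a weak peak was absent or fell under the calling limit cannot be told apart.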
